A study of Mus musculus with 8 samples.

Results

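Chromosome segregation genes were examined in RNA of mouse embryos at the 2-cell stage, comparing embryos that lack Gadd45a and Gadd45b with wild-type embryos. The set is a list of 45 genes given by symbol: the Aurora kinases and their partners, the spindle checkpoint, the anaphase promoting complex (APC) with its coactivators and ubiquitin enzymes, securin and separase, mitotic kinesins, outer kinetochore and centromere proteins, and condensin. All 45 symbols matched a single row of the count tables, among 37310 gene identifiers in all. The rule that chose them used no measured value, but the list was drawn up with earlier results of these libraries known.

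The knockout embryos carried a Gadd45a/Gadd45b double knockout (DKO), bred from the 2 single knockout lines, and the wild-type (WT) embryos carried neither mutation. Which exons each allele lacks was not given in the labels. All are labelled C57BL/6N. Each genotype had 4 pools, and a pool held the 23 to 35 embryos of 1 litter, taken from superovulated and naturally mated females of 3 to 4 weeks at 20 h past the plug. The females had the embryos' genotype. The mother lacked the genes too, so loss of the maternal and of the embryonic products cannot be told apart, and a pool hides differences between its embryos. Hyaluronidase, which loosens cumulus cells, was used at collection, and polyA RNA was read as counts per gene. Each pool is 1 litter, so the p-values measure the spread between litters.

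Each time a cell divides, condensin compacts its chromosomes, kinetochores built on centromeres attach them to spindle microtubules, and Aurora kinases correct wrong attachments. Until every kinetochore is attached, the spindle checkpoint holds back the APC, a ubiquitin ligase that otherwise marks securin and cyclin B for destruction, which frees separase to cut the cohesin rings that join sister chromatids. In the mouse embryo the first cleavage runs largely on proteins and RNA laid down in the oocyte, and the 2-cell embryo starts to replace that RNA with transcripts of its own.

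The 8 libraries held 21329736 to 23919114 counts each. Gadd45b was at 0.276 ± 0.244 CPM in DKO pools and 45.3 ± 11.8 CPM in WT pools (SD, n = 4 each), where CPM is a count relative to the library's total after TMM scaling. On the log2 scale it was lower by edgeR at −7.33 ± 0.42 (SE; adjusted p = 5.63e-07). Gadd45a was at 9.399 ± 1.69 CPM in DKO pools and 20.0 ± 2.95 CPM in WT pools (SD, n = 4 each), without overlap, and edgeR gave it −1.09 ± 0.22 on the log2 scale (SE; adjusted p = 0.303). The 6 markers of the 2-cell stage summed to 1188 to 1740 CPM in DKO pools and 1611 to 2153 CPM in WT pools. Of these markers 4 had a negative log2 fold change, 66.7% beside 48.8% of all genes, with a median of −0.23. At an unadjusted edgeR p under 0.05, 2 were lower and 0 higher, beside 4.44% of all genes lower and 5.79% higher, and 0 passed the adjusted threshold. Of 12 markers of cumulus or granulosa cells, which surround the oocyte, Ptx3, Amh, Inhba and Foxl2 had no count in any library, and the 12 summed to 37.2 to 54.1 CPM in DKO pools and 39.6 to 51.6 CPM in WT pools. The 7 sperm markers summed to at most 2.37 CPM in a DKO pool and 1.47 CPM in a WT pool, with Smcp at 0 throughout. The 7 markers of later embryos, Cdx2 and Nanog among them, summed to 22.4 to 35.8 CPM in DKO pools and 15.6 to 32.2 CPM in WT pools.

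DKO replicate 1 was unlike the rest, with the lowest voom quality weight, 0.365 against 0.786 to 2.09 in the others. The 15 oocyte markers summed to 20471, 12056, 14161 and 12387 CPM in DKO pools 1 to 4, and to 9064, 9374, 12392 and 7262 CPM in WT pools 1 to 4. The sum was highest in DKO replicate 1, and 3 genes made up most of it there, Btg4 at 5899, Omt2a at 5846 and Omt2b at 5088 CPM. Of the 15 markers 10 were highest in that library, while Zp3 and Padi6 were lowest there, at 116 and 55.2 CPM. The oocyte markers leaned higher in DKO, with 12 of 15 positive and a median log2 fold change of 0.27. Of the markers 20% were negative, beside 48.8% of all genes. At an unadjusted edgeR p under 0.05, 5 of the markers were higher and 0 lower, beside 5.79% of all genes higher and 4.44% lower. Of the markers 0 passed the adjusted threshold. The DKO pools of Omt2a and Omt2b lay above the WT pools without overlap, as did those of 2.79% of all genes. For the mitotic genes, the number with a negative log2 fold change and the median are given with and without DKO replicate 1. So are the fold changes of members with an unadjusted p under 0.05, and a plot shows those of every member both ways. The counts by role group, the splits by promoter motif and the lists of other genes are given with it only. In bulk RNA, fewer cells with a transcript and less of it per cell cannot be told apart.

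RNA of most of the mitotic genes was abundant in both genotypes. Counts of polyA RNA do not tell RNA laid down in the oocyte from transcripts of the embryo. All 45 passed the filter on low counts, with at least 102 counts in every library. Their median level stood at the 91.4th percentile of the 14970 genes tested, 23 of the 45 were in the top 10% and 3 below the 50th percentile. Together the members took 1.07% to 1.253% of a DKO library's counts and 1.255% to 1.354% of a WT library's.

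Levels differed widely within the set, whichever the genotype. Per kilobase of exon, the members spanned a 279-fold range of mean level in DKO and a 269-fold range in WT. The length is the union of all annotated exons of a gene, so the ranks depend on it. By mean CPM without that division Mad2l1 was highest, at 1083 ± 85.2 CPM in DKO and 1088 ± 93.6 CPM in WT (SD, n = 4 each). Its exon length is 8390 bases. Pttg1, which encodes securin, the inhibitor of separase, led in both, at 444 ± 66.6 CPM per kb in DKO and 433 ± 42.2 CPM per kb in WT (SD, n = 4 each). Ube2c, the enzyme that starts ubiquitin chains for the APC, followed at 359 ± 55.8 CPM per kb in DKO and 403 ± 17.0 CPM per kb in WT (SD, n = 4 each). Birc5, also called survivin, a subunit of the chromosomal passenger complex, came after them at 266 ± 3.84 CPM per kb in DKO and 272 ± 23.1 CPM per kb in WT (SD, n = 4 each). For each of these 3 genes the DKO and WT pools overlapped, and in both genotypes the ranges of Pttg1 and Ube2c overlapped each other. At the other end stood Fzr1, the APC coactivator of late mitosis and G1 also known as Cdh1, at 1.59 ± 0.439 CPM per kb in DKO and 1.61 ± 0.435 CPM per kb in WT (SD, n = 4 each). Anapc13 and Anapc2, both APC subunits, were next lowest, at 2.31 ± 0.366 and 2.70 ± 0.384 CPM per kb in DKO, and at 2.83 ± 0.680 and 3.10 ± 0.206 CPM per kb in WT (SD, n = 4 each).

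**Figure D1:**
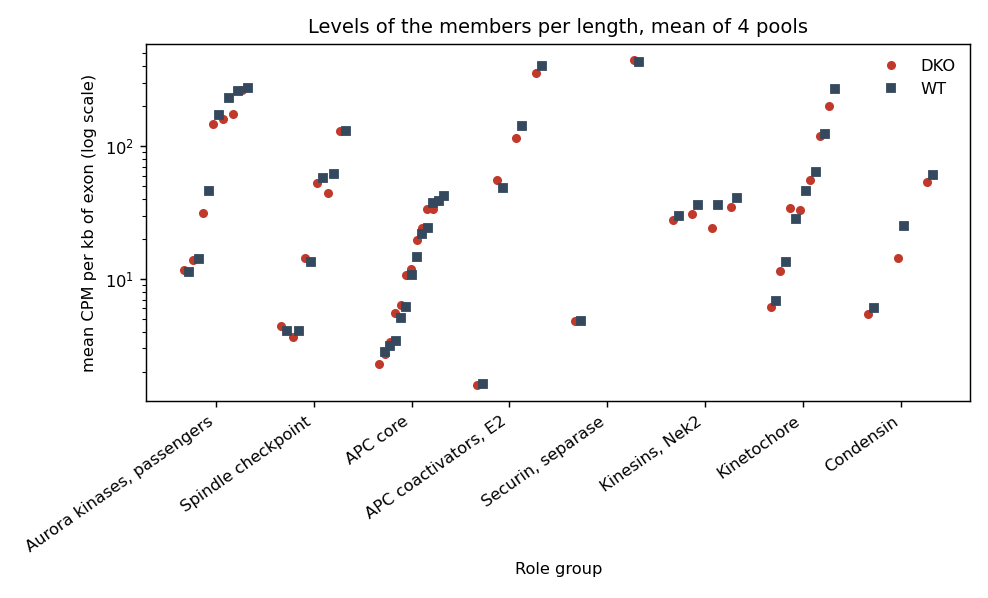
Mean level of each member per kilobase of exon (log axis, mean of 4 pools), by role group, for DKO (red circles) and WT (dark squares). Circles and squares lie close together for each gene, while genes range from Fzr1 at 1.59 and 1.61 CPM per kb to Pttg1 at 444 and 433 CPM per kb in DKO and WT.

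The comparison of genotypes asked which of these genes differ when Gadd45a and Gadd45b are lost. None of the 45 passed an edgeR adjusted p of 0.05, the lowest being 0.469. Over all genes 0.0267% passed, 4 of 14970, with 0.02% lower and 0.00668% higher. DESeq2 called 0 of the 45 (0.314% of all genes) and limma-voom 0 of the 45 (0.0334% of all genes). At an unadjusted edgeR p under 0.05, 8 members were lower in DKO and 0 higher. That is 17.8% of the members lower, beside 4.44% of all genes lower and 5.79% higher. The count of 8 became 4, or 8.89% of the members, without WT replicate 2 (2.91% of all genes lower) and without WT replicate 4 (3.19% of all genes lower).

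The 8 were the mitotic kinases Aurka (ENSMUSG00000027496) and Aurkb (ENSMUSG00000020897), the Aurka activator Tpx2 (ENSMUSG00000027469), the checkpoint gene Bub3 (ENSMUSG00000066979), the central spindle kinesin Kif20a (ENSMUSG00000003779), the kinetochore genes Ndc80 (ENSMUSG00000024056) and Spc25 (ENSMUSG00000005233), and the condensin core gene Smc2 (ENSMUSG00000028312). Of the 45 members 36 had a negative log2 fold change, 80.0% beside 48.8% of all genes, and the members' median was −0.14 beside 0.01 for all genes. The oocyte markers, whose part in this was not tested, had the median of 0.27 given above. With scaling by library size alone 29 of 45 were negative, 64.4% beside 43.6% of all genes. Without DKO replicate 1, 35 of 45 were negative (51.1% of all genes), the median was −0.09, and 6 of the 8 kept an unadjusted p under 0.05 (3.25% of all genes were lower at that p).

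Abundant genes in general leaned the same way. Among the 1497 genes in the top 10% by level, 66.5% had a negative log2 fold change, the median was −0.12, and 7.35% were lower at an unadjusted p under 0.05. Of the 23 members in that range 20 were negative, with a median of −0.20, and 5 were lower at that p. The part of level in the members' shift was not tested beyond these values.

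**Figure D2:**
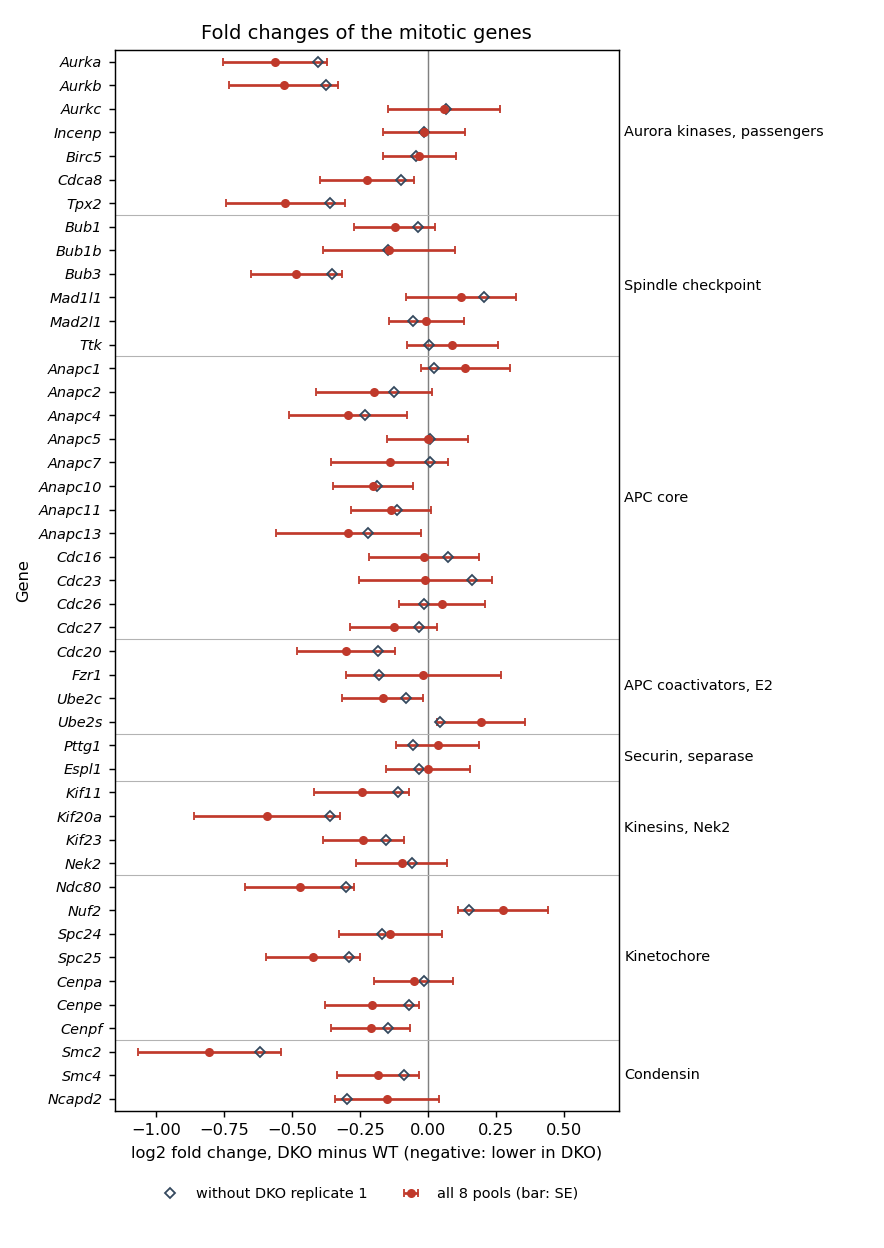
Log2 fold change of each member, DKO minus WT, from the fit of all 8 pools (red circles with SE bars) and without DKO replicate 1 (open diamonds), by role group. Most points lie left of 0, Smc2 farthest at −0.80, and the 8 members below −0.4 lie closer to 0 without DKO replicate 1. That pool was the lowest for each of these 8, so a move toward 0 without it was nearly fixed in advance.

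Genes of the G2 and M phases often carry CCAAT boxes, bound by NF-Y, and a cell cycle homology region (CHR), bound by the MuvB core of the DREAM complex, near their start. RefSeq promoters on GRCm38.p6, from 250 bases before to 50 after a start, were at hand for 38 of the 45 members, 42 promoters in all. CCAAT, read on both strands, stood in 64.3% of the members' promoters and 37.4% of the 32851 in the table. The CHR letters TTTGAA, read on both strands, stood in 42.9% of the members' promoters and 17.9% of the table, and both motifs together in 38.1% and 6.95%. The motifs overlap by their letters in 1 member promoter, that of Cdca8. The stretches of 150 bases before the start are printed for the members with an unadjusted p under 0.05 that had a promoter, for Cdc20, and for Nuf2 as the member with the highest fold change. They run 5′ to 3′ on the gene's strand, with CCAAT and TTTGAA, or their reverse complements, in capitals.
Aurka (chr2:172370571-172370720, - strand): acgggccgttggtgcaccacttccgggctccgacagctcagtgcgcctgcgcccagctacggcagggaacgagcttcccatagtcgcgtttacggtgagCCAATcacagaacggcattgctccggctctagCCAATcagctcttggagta
Bub3 (chr7:131560220-131560369, + strand): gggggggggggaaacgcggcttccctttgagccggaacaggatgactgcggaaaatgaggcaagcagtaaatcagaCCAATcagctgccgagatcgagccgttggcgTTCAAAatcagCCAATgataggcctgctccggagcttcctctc
Cdc20 (chr4:118437344-118437493, - strand): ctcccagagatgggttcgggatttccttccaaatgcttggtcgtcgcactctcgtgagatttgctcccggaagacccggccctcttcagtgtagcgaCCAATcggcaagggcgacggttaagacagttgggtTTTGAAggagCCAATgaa
Ndc80 (chr17:71526858-71527007, - strand): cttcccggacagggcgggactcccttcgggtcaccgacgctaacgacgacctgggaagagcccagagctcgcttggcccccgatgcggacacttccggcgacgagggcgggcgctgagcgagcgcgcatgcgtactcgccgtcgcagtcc
Nuf2 (chr1:169531465-169531614, - strand): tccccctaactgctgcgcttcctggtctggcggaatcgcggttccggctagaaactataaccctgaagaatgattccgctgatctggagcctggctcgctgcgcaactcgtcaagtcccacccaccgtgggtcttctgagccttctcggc
Spc25 (chr2:69206214-69206363, - strand): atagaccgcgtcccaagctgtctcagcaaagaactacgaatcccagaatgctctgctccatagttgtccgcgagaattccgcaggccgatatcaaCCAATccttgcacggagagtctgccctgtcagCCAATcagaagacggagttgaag
Smc2 (chr4:52439071-52439220, + strand): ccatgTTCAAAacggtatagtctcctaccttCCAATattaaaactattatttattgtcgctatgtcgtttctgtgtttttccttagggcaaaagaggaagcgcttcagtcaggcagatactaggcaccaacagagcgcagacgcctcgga
Aurka and Spc25 have a pair of CCAAT boxes each, and TTTGAA past the printed end at 33 and 25 bases from the start. Bub3 has TTTGAA on the reverse strand at −43 between its pair of boxes at −74 and −32, and Cdc20 has it on the forward strand at −18 between boxes at −53 and −8. Ndc80 has no CCAAT in its window and TTTGAA on the reverse strand at 30, and Smc2 has TTTGAA on the reverse strand at −145 and 27 with a box at −119. Nuf2 has neither in its window.

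The 17 members with TTTGAA in a promoter had a median log2 fold change of −0.22, and 15 of them were negative. Aurka, Bub3, Ndc80, Spc25 and Smc2 were among them, which are all 5 of the 8 low members that had a promoter in the table. The 21 without it had a median of −0.02, and 14 of them were negative. The 24 members with CCAAT had a median of −0.16, with 21 negative and 4 of the low members among them. The 14 without CCAAT had a median of −0.01, with 8 negative and 1 low member among them. A match describes letters in a window, the motifs were chosen with the fold changes known, and neither split was tested.

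Among the Aurora kinases and passengers, 6 of 7 members were negative and 3 had an unadjusted p under 0.05. Aurka, the kinase of centrosomes and spindle poles, had 279.8, 468, 506 and 519 CPM in DKO pools 1 to 4, and 736, 688, 530.1 and 664 CPM in WT pools 1 to 4. All 4 DKO pools lay below all 4 WT pools, with the gap between DKO replicate 4 and WT replicate 3 the narrowest. On the log2 scale Aurka stood at −0.56 ± 0.19 by edgeR (SE; adjusted p = 0.469). Such separation of the pools with DKO lower was seen in 3 of the 45 members, 6.67%, beside 2.55% of all genes. Separation with DKO higher was seen in 0 members, beside 2.79% of all genes, or 5.34% in either direction.

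Aurkb, the catalytic subunit of the passenger complex that corrects attachments at the inner centromere, had 60.2, 98.5, 113 and 100.2 CPM in DKO pools and 130.4, 175, 112 and 121 CPM in WT pools. The groups met at DKO replicate 3 and WT replicate 3, and DKO replicate 1 was the lowest. For Aurkb edgeR gave −0.53 ± 0.20 in log2 units (SE; adjusted p = 0.469). Tpx2, which activates Aurka and nucleates spindle microtubules, had 462, 837, 793 and 885 CPM in DKO pools and 1091, 1014, 751 and 1424 CPM in WT pools. WT replicate 4 was far above the rest, and WT replicate 3 fell among the DKO pools. The edgeR log2 value for Tpx2, DKO over WT, was −0.52 ± 0.22 (SE; adjusted p = 0.471).

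The remaining passengers differed less. Birc5 had 913, 918, 900.3 and 889 CPM in DKO pools, a tight group, inside the 996, 919.9, 818 and 971 CPM of WT pools. By edgeR the log2 difference was −0.03 ± 0.13 (SE; adjusted p = 0.942). Cdca8, encoding the passenger subunit borealin, averaged 764 ± 168 CPM in DKO and 893 ± 99.0 CPM in WT (SD, n = 4 each) and stood at −0.22 on the log2 scale, and Incenp, the scaffold of the complex, stood at −0.02. Aurkc, the Aurora kinase typical of oocytes and sperm cells, was the sole positive member here, at 0.06, with 17.8 ± 4.01 CPM in DKO and 17.1 ± 1.58 CPM in WT (SD, n = 4 each). Its count is uncertain, since the annotation holds a processed pseudogene, Gm12463, that is 99.2% identical to it over 849 bases and had 655 counts over all libraries against 3142 for Aurkc. Per kilobase, Aurkb exceeded Aurkc 1.79, 3.67, 3.49 and 2.21 times in DKO pools and 4.08, 4.65, 3.46 and 3.93 times in WT pools.

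In the spindle checkpoint 4 of 6 members were negative, and 1 had an unadjusted p under 0.05. Bub3, which docks Bub1 and BubR1 on kinetochores, had 219, 342, 323 and 356 CPM in DKO pools and 431, 496, 406 and 401 CPM in WT pools. The groups did not overlap, and DKO replicate 1 was the lowest pool. On the log2 scale Bub3 stood at −0.48 ± 0.17 by edgeR (SE; adjusted p = 0.469). The kinase Bub1 had 231 ± 34.5 CPM in DKO and 251 ± 17.6 CPM in WT (SD, n = 4 each), and Bub1b, encoding BubR1, 15.7 ± 3.46 CPM in DKO and 17.4 ± 4.89 CPM in WT (SD, n = 4 each). Mad1l1, encoding the platform that converts Mad2 to its active form, and Ttk, the kinase Mps1 that starts the signal, were positive at 0.12 and 0.09.

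Mad2l1, which encodes Mad2, the checkpoint protein that captures Cdc20, lies 0.488 Mb from Gadd45a on chromosome 6 of GRCm38, and Fzr1 lies 0.434 Mb from Gadd45b on chromosome 10. No other member lies within 10 Mb of either targeted gene. Mad2l1 had 1175, 1058, 1122 and 977 CPM in DKO pools and 983, 1106, 1206 and 1057 CPM in WT pools. For Mad2l1 edgeR gave −0.0065 ± 0.14 in log2 units (SE; adjusted p = 0.991). Fzr1 had 9.34, 5.23, 5.75 and 8.23 CPM in DKO pools and 9.28, 8.27, 4.87 and 6.48 CPM in WT pools. The edgeR log2 value for Fzr1, DKO over WT, was −0.02 ± 0.28 (SE; adjusted p = 0.986). In both genes the groups overlapped over most of their range, and the sign of the fold change depended on the setting.

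**Figure D3:**
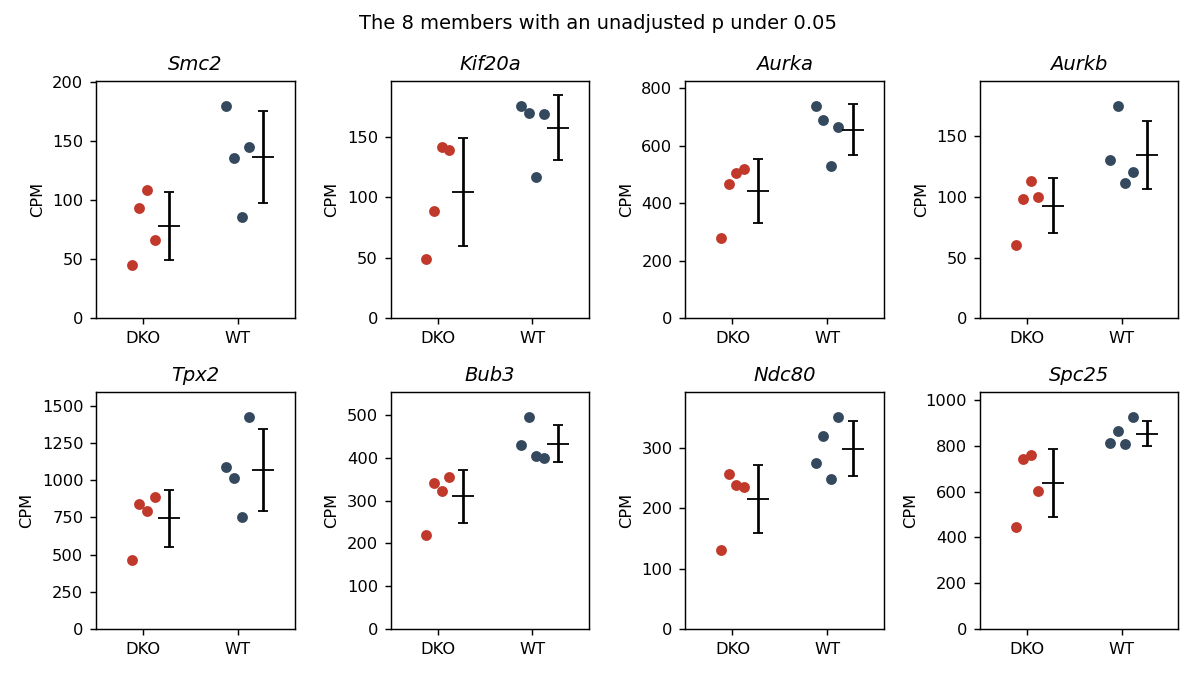
CPM of the 8 members with an unadjusted p under 0.05, each panel from 0, with 1 point per pool in replicate order (DKO red, WT dark) and the mean ± SD of 4 pools beside it. The DKO pools lie below the WT pools without overlap for Aurka, Bub3 and Spc25, and the leftmost DKO point, replicate 1, is the lowest of the 8 in every panel.

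In the APC core, 10 of 12 subunits were negative, none had an unadjusted p under 0.05, and the median was −0.13. Several of these signs rested on DKO replicate 1. Without it Anapc5, Anapc7, Cdc16 and Cdc23 turned positive, at 0.0086, 0.0056, 0.072 and 0.16, and Cdc26 turned negative, at −0.015. Anapc10, a substrate-binding subunit and the one with the smallest p, had 156, 198, 161 and 137 CPM in DKO pools and 186, 175, 186 and 202 CPM in WT pools. DKO replicate 2 fell among the WT pools. By edgeR the log2 difference was −0.20 ± 0.15 (SE; adjusted p = 0.605). The scaffold Anapc1 was at 0.14, the catalytic cullin Anapc2 at −0.20 and its RING partner Anapc11 at −0.14. Of the subunits with tetratricopeptide repeats that form the arc of the complex, Cdc27 was at −0.13, Cdc16 at −0.02, Cdc23 at −0.01 and Anapc7 at −0.14. Anapc4 and Anapc13 were lowest, both at −0.29, with 72.6 ± 12.7 and 5.48 ± 0.870 CPM in DKO and 89.0 ± 29.3 and 6.72 ± 1.62 CPM in WT (SD, n = 4 each). Anapc5 was at −0.00091 and Cdc26 at 0.05.

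Levels per kilobase within the APC core were far from equal, although the subunits belong to 1 complex. They depend on the annotation, since the length used is the union of all annotated exons, 2377 bases for Anapc13 and 6248 for Cdc27. From Anapc13 to Cdc27, mean levels per kilobase spanned 16.8-fold in DKO, with a median of 11.3 CPM per kb, and 14.97-fold in WT, with a median of 12.7 CPM per kb. Cdc23 shares 1271 exon bases with Kif20a on the opposite strand, 13.4% of its own exons and 29.3% of those of Kif20a. The labels do not say whether counting used strand, so reads of this pair may not be told apart. Anapc13 likewise shares 10.1% of its exons with Cep63, which had 8709 counts over all libraries against 1097 for Anapc13.

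Cdc20, the coactivator that the checkpoint restrains, had 157, 212, 241 and 250.5 CPM in DKO pools and 314, 275, 199 and 274 CPM in WT pools. WT replicate 3 lay among the DKO pools. On the log2 scale Cdc20 stood at −0.30 ± 0.18 by edgeR (SE; adjusted p = 0.545). Ube2c had 750.5, 1018, 888 and 1076 CPM in DKO pools and 994, 1074, 1029 and 1091 CPM in WT pools, with DKO replicate 1 below the other 7, and stood at −0.17 ± 0.15 on the log2 scale by edgeR (SE; adjusted p = 0.678). Ube2s, the enzyme that lengthens the chains Ube2c begins, had 369 CPM in DKO replicate 1, 247 to 281 CPM in the other DKO pools, and 244, 279, 262 and 218 CPM in WT pools. DKO replicate 1 was thus the highest of 8, and Ube2s stood at 0.19 ± 0.16 on the log2 scale by edgeR (SE; adjusted p = 0.65). The ratio of Ube2c to Ube2s per kilobase was 4.03 in DKO replicate 1, 7.10 to 8.05 in the other DKO pools, and 7.62 to 9.88 in WT pools.

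Securin and separase were close in the genotypes. Pttg1 had 1043, 909, 884 and 718 CPM in DKO pools and 803, 845, 991 and 829 CPM in WT pools, with DKO replicate 1 the highest and DKO replicate 4 the lowest. For Pttg1 edgeR gave 0.04 ± 0.15 in log2 units (SE; adjusted p = 0.946). Espl1, which encodes separase, varied least of all 45, with 1.21-fold between its extreme pools, and had 41.9 ± 2.59 CPM in DKO and 41.9 ± 3.60 CPM in WT (SD, n = 4 each).

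All 4 kinesin and Nek2 members were negative. Kif20a, which moves passengers to the central spindle for cytokinesis, had 48.7, 88.8, 142 and 139 CPM in DKO pools and 175, 169.7, 117 and 169 CPM in WT pools. DKO replicate 1 was lowest, and WT replicate 3 fell below DKO replicates 3 and 4. The edgeR log2 value for Kif20a, DKO over WT, was −0.59 ± 0.27 (SE; adjusted p = 0.48). Kif11, the motor that pushes spindle poles apart, was at −0.24, Kif23, a subunit of centralspindlin, at −0.24 and the centrosomal kinase Nek2 at −0.10.

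In the kinetochore group 6 of 7 members were negative. Ndc80, Nuf2, Spc24 and Spc25 encode the rod-shaped complex that binds microtubules. Ndc80 had 131, 256, 238 and 235 CPM in DKO pools and 274, 320.2, 248 and 351 CPM in WT pools, overlapping between DKO replicate 2 and WT replicate 3. By edgeR the log2 difference was −0.47 ± 0.20 (SE; adjusted p = 0.471). Spc25 had 443, 743, 759.5 and 601 CPM in DKO pools and 809.8, 866, 809.5 and 925 CPM in WT pools, without overlap. On the log2 scale Spc25 stood at −0.42 ± 0.17 by edgeR (SE; adjusted p = 0.471).

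Nuf2, the direct partner of Ndc80 in the rod, had the highest fold change of the 45 members, with 266, 182, 228 and 186 CPM in DKO pools and 196, 176, 199 and 142 CPM in WT pools. DKO replicate 1 was the highest and WT replicate 4 the lowest. For Nuf2 edgeR gave 0.27 ± 0.17 in log2 units (SE; adjusted p = 0.548). The ratio of Ndc80 to Nuf2 per kilobase was 0.481, 1.38, 1.02 and 1.23 in DKO pools and 1.37, 1.77, 1.22 and 2.40 in WT pools, and this ratio, chosen after its values were seen, was not tested. Spc24 was at −0.14. The centromeric histone gene Cenpa was at −0.05, the kinetochore motor Cenpe at −0.21 and the large corona protein gene Cenpf at −0.21.

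Condensin had 3 of 3 members negative. Smc2, the core ATPase shared by both condensins, had 44.8, 93.4, 109 and 65.9 CPM in DKO pools and 179, 135, 85.5 and 145 CPM in WT pools. Its promoter is the one with TTTGAA at both −145 and 27. Smc2 had the lowest fold change of the 45 members and varied most, 4.01-fold between DKO replicate 1 and WT replicate 1, with WT replicate 3 among the DKO pools. The edgeR log2 value for Smc2, DKO over WT, was −0.80 ± 0.26 (SE; adjusted p = 0.469). Its partner ATPase Smc4 had 278 ± 44.4 CPM in DKO and 316 ± 23.1 CPM in WT (SD, n = 4 each) and stood at −0.18 on the log2 scale. Ncapd2, a regulatory subunit of condensin I, was at −0.15. Smc2 stood below Smc4 per kilobase in all pools, at 0.197, 0.279, 0.375 and 0.209 of it in DKO and 0.531, 0.378, 0.285 and 0.439 of it in WT.

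**Figure D4:**
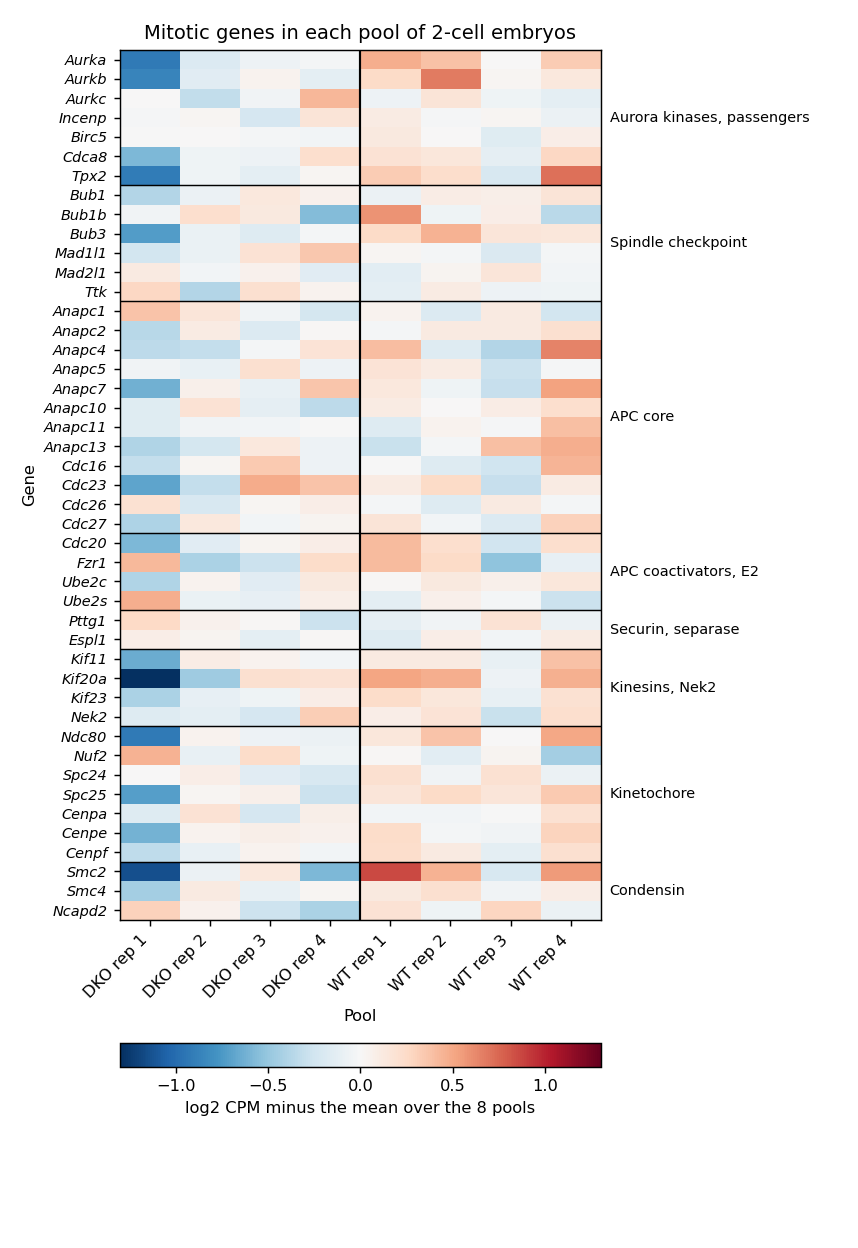
Log2 CPM of each member in each pool, minus its mean over the 8 pools (blue below, red above), with DKO pools left of WT pools and horizontal lines between role groups. The first column, DKO replicate 1, holds the lowest value for 24 members and the highest for 8, while WT replicate 4 is highest for 18.

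Pools of 1 genotype differed in these genes as well. DKO replicate 1 was the lowest of 8 pools in 24 members, including all 8 with an unadjusted p under 0.05, and the highest in 8: Ttk, Anapc1, Cdc26, Fzr1, Ube2s, Pttg1, Nuf2 and Ncapd2. The members' mean log2 CPM was 6.72, 6.96, 7.01 and 7.01 in DKO pools and 7.15, 7.12, 6.97 and 7.17 in WT pools. WT replicate 3 was the lowest WT pool here, within the range of the DKO pools, and the highest WT pool in the summed oocyte markers. Without DKO replicate 1 the log2 fold changes of the 8 were −0.62 for Smc2, −0.40 for Aurka, −0.38 for Aurkb, −0.36 for Kif20a, −0.36 for Tpx2, −0.35 for Bub3, −0.30 for Ndc80 and −0.29 for Spc25, all with an edgeR adjusted p above 0.8. Aurka, Bub3 and Spc25 did not overlap there, which was fixed in advance by their separation in all 8 pools. No other member joined them, so the count was 3 of 45 members, beside 3.25% of all genes. Without WT replicate 3 the pools of 13 members did not overlap with DKO lower, beside 6.69% of all genes. The part of the oocyte marker RNA in these differences was not tested.

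**Figure D5:**
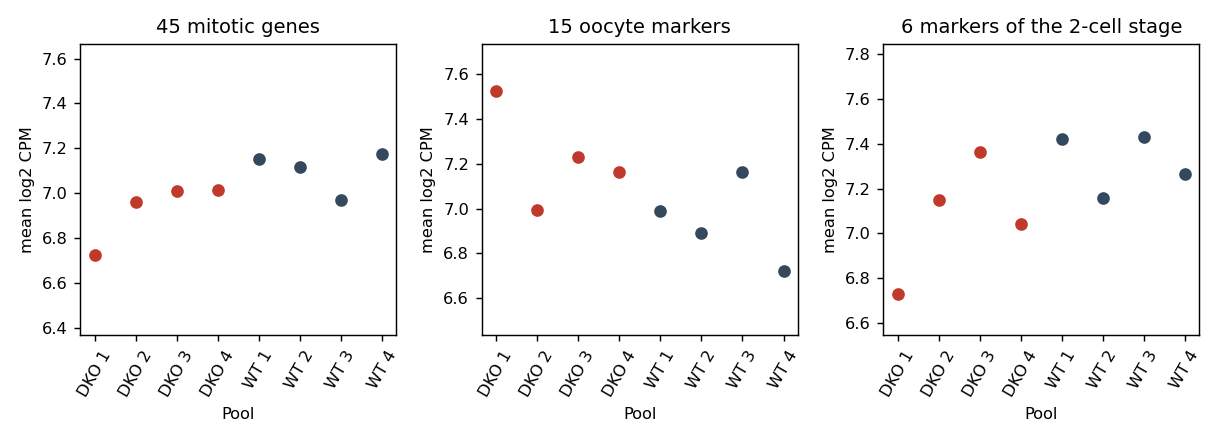
Mean log2 CPM in each pool of the 45 mitotic genes, of 15 oocyte markers and of 6 markers of the 2-cell stage, with DKO pools in red left of WT pools, each axis spanning the same log2 range. DKO replicate 1 is lowest in the mitotic genes (6.72), highest in the oocyte markers (7.53) and lowest in the 2-cell markers (6.73).

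Other genes of the same processes were read from lists that hold none of the 45. Of 106 such genes 105 were tested, and 0 passed an edgeR adjusted p of 0.05. Of those tested 77 were negative, 73.3% beside 48.8% of all genes. The median log2 fold change of the 105 was −0.16. At an unadjusted p under 0.05, 12 were lower and 4 higher. That is 11.4% lower, beside 4.44% of all genes lower and 5.79% higher. The pools of 6 of the 105 did not overlap with DKO lower, 5.71% beside 2.55% of all genes. With DKO higher this held for 1 of the 105, beside 2.79% of all genes. In the kinetochore and checkpoint list 28 of 34 were negative, 82.4% beside 48.8% of all genes. In this list 5 genes were lower and 1 higher at an unadjusted p under 0.05. Cenpl, a subunit of the inner kinetochore network, had 81.0, 122, 125 and 111 CPM in DKO pools and 151, 179, 175 and 142 CPM in WT pools, without overlap. By edgeR the log2 difference was −0.56 ± 0.16 (SE; adjusted p = 0.469). Its direct partner in that network, Cenpn, had the smallest p among the positive genes of the list, with 788, 372, 539 and 414 CPM in DKO pools and 347, 322, 431 and 317 CPM in WT pools. DKO replicate 1 was by far the highest for Cenpn. On the log2 scale Cenpn stood at 0.58 ± 0.21 by edgeR (SE; adjusted p = 0.469).

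Of 36 further spindle genes 28 were negative, 77.8% beside 48.8% of all genes. Tubg1, gamma-tubulin, was at 96.3 ± 22.5 CPM in DKO and 129 ± 17.7 CPM in WT, and the spindle pole organizer Numa1 at 15.2 ± 4.65 CPM in DKO and 10.2 ± 2.18 CPM in WT (SD, n = 4 each). By edgeR, Tubg1 stood at −0.42 (adjusted p = 0.475) and Numa1 at 0.57 (adjusted p = 0.476) on the log2 scale. Of 22 tested condensin and cohesin genes 13 were negative, 59.1% beside 48.8% of all genes. At an unadjusted edgeR p under 0.05, 2 of them were lower and 2 higher, beside 4.44% of all genes lower and 5.79% higher. Ncapg, a condensin I subunit like Ncapd2, had 129.6, 147, 178 and 175 CPM in DKO pools and 196, 263, 196 and 229 CPM in WT pools, without overlap. For Ncapg edgeR gave −0.49 ± 0.16 in log2 units (SE; adjusted p = 0.469). Stag1, a cohesin subunit, was higher in each of the 4 DKO pools than in any WT pool, at 94.2 ± 3.25 CPM in DKO and 74.3 ± 5.86 CPM in WT (SD, n = 4 each), at 0.34 ± 0.14 on the log2 scale by edgeR (SE; adjusted p = 0.47).

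Of 4 further APC genes 1 was negative, 25% beside 48.8% of all genes. The APC inhibitors Fbxo5 and Fbxo43, known as Emi1 and Emi2, were at −0.10 and 0.26. In the list of the CDK1 switch that drives entry into mitosis 7 of 9 were negative, 77.8% beside 48.8% of all genes. Cdc25c, a phosphatase that activates CDK1, had 120.2, 194, 179 and 218 CPM in DKO pools and 236, 259.9, 222 and 260.2 CPM in WT pools, without overlap. The edgeR log2 value for Cdc25c, DKO over WT, was −0.46 ± 0.17 (SE; adjusted p = 0.469). Its relative Cdc25b was at 8.22 ± 2.88 CPM in DKO and 6.11 ± 1.85 CPM in WT (SD, n = 4 each), at 0.43 ± 0.31 on the log2 scale by edgeR (SE; adjusted p = 0.604). The other spindle genes summed to 5908 CPM in DKO replicate 1, 8351 to 9475 CPM in the other DKO pools and 8538 to 11170 CPM in WT pools.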

How the data were processed

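The deposited files give, per library, a count for each Ensembl gene. Per the submitters' processing notes the authors named the tools featureCounts 1.5.1, STAR 2.5.2b, DESeq2 1.18.1, FastQC 0.11.5 and bcl2fastq 2.19.1 and the builds NCBIM37 and mm9. Settings for strand and for reads with several matches are not given in the sources used here. cDNA was amplified, per the labels' protocols, before library preparation and no molecular identifiers are mentioned, so counts include PCR copies.

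The deposited counts were tested over all 14970 genes that passed edgeR's filterByExpr, with TMM scaling and the robust quasi-likelihood test of edgeR 4.0.16 (R 4.3.3), genotype as the sole term and Benjamini-Hochberg adjustment at 0.05. Identifiers were matched to symbols by the GENCODE M21 annotation of GRCm38, used also for exon lengths, distances and overlaps. The mean log2 CPM used a prior count of 2. DESeq2 1.42.0, limma 3.58.1 voom, other scalings, filters and designs, and leaving out libraries were the alternatives.

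Full values are given for members with an unadjusted p under 0.05 or the smallest p of their role group, those without overlap, the 3 highest and 3 lowest per kilobase, and those within 10 Mb of a targeted gene. In each pathway list the smallest p in each direction was named. Members and lists were chosen with earlier results of these data known. Birc5, Ube2s, Nuf2, the ratios, the level ranges and the motifs were described after their values were seen.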

Additional observations from a re-analysis of the deposited data

Results flagged for a closer look

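Among 92 groups of 4 pools, each of the 45 members and the mean over members in each genotype, 6 held a pool whose gap to its neighbour exceeded Dixon's 95% critical value. Chance flags about 1 in 20 groups.

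Ndc80 was at 131 CPM in DKO replicate 1, against 235 to 256 CPM in the other DKO pools. Cenpe was at 331 CPM in the same library, against 523 to 534 CPM in the other DKO pools. Nek2 was at 161 CPM in DKO replicate 4, against 111 to 118 CPM in the other DKO pools. Anapc5 was at 169 CPM in DKO replicate 3, against 137 to 142 CPM in the other DKO pools. Kif20a was at 117 CPM in WT replicate 3, against 169 to 175 CPM in the other WT pools. Cenpa was at 812 CPM in WT replicate 4, against 688 to 702 CPM in the other WT pools.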

How the results depend on the processing

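No member passed the threshold in any of 19 alternatives. Of 333 alternative values 310 were scored as unchanged, 15 as reversed and 8 as moved. A gene's fold change was unchanged if it kept its sign and its side of the threshold. Since no member passed in any setting, this score rested on the sign alone, whatever the size. Cdc20 went from −0.30 to −0.086 without both libraries numbered 1 and was scored as unchanged. A count was unchanged if it stayed within a set ratio of its main value. The members' median was unchanged if it shifted by less than 0.117, the spread between pools. Genes called over all genes numbered 4, and 47 with DESeq2, 7 without a filter and 1 at a mean of at least 10 CPM, where fewer genes were tested; the count was 4 to 4 with any 1 library left out. Members with a negative log2 fold change numbered 27 to 37, and 32 to 36 with 1 library left out (48.2% to 51.1% of all genes). At a mean of at least 10 CPM 27 of 42 were negative, 64.3% beside 50.2% of all genes. The median of the members lay between −0.19 and −0.08, and between −0.19 and −0.09 with 1 library left out. Members lower at an unadjusted p under 0.05 numbered 4 to 9 with 1 library left out, 4 without WT replicate 2 or WT replicate 4, and 3 without both libraries numbered 1; of all genes 2.91% to 6.2% were lower at that p with 1 library left out and 2.75% without both numbered 1. With every library 2.55% of all genes did not overlap with DKO lower. Leaving out a pool can only keep or raise such a number. Members without overlap numbered 3 to 13 with 1 library left out. They numbered 5 without DKO replicate 2 (5.68% of all genes) and 13 without WT replicate 3 (6.69% of all genes). These last counts were added after seeing the data, and the cause was not tested.

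Mad2l1 turned positive with library size alone (0.0466), a mean of at least 10 CPM (0.0310) and embryo number as covariate (0.0165), and lay between −0.0572 and 0.0402 with 1 library left out. Fzr1 turned positive with library size alone (0.0399) and lay between −0.181 and 0.120 with 1 library left out. Pttg1 turned negative with limma-voom (−0.0130) and without both libraries numbered 1 (−0.0846), and lay between −0.0568 and 0.126 with 1 library left out.

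Library size alone moved the median of all genes to 0.07, against 0.01 with TMM. The labels do not say that replicate numbers pair the samples. Deviations of same-numbered pools correlated at 0.002 to 0.078, and not every pool correlated best with its own number. These values cannot show whether pools were handled together. With the replicate block 4 genes and 0 members were called, 35 members were negative with a median of −0.14, and 8 were lower at an unadjusted p under 0.05.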
